A study of Mus musculus with 27 samples.

Results

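The glucocorticoid receptor and a set of genes tied to its action were followed in the livers of old mice on 4 diets. The set holds 10 genes, taken by symbol from the 18820 genes that had a transcript cluster with a single gene symbol on the array: Nr3c1, Hsd11b1, Fkbp5, Tsc22d1, Tsc22d3, Sgk1, Dusp1, Zbtb16, Klf9 and Errfi1. Where a gene had more than 1 cluster, which was so for Tsc22d1 and Klf9, the one with the highest mean level was used. All 10 genes passed a filter that asked for an intensity above 20 on 5 or more arrays and an interquartile range over 0.1. Livers were taken at 28 months of age from 27 males of the C57BL/6J strain, and the RNA of each mouse was measured on its own Affymetrix Mouse Gene 1.1 ST array. The 7 CR-MF mice had eaten a calorie restricted (CR) diet until 24 months and then the medium-fat (MF) diet for 4 months, with portions raised step by step over the first weeks before access was free. The 7 MF mice had free access to the MF diet, in which fat supplied 25% of the energy, throughout. The 5 CR mice stayed on AIN-93W-CR, fed in daily portions at 30% restriction, and the 8 C mice ate the control diet AIN-93W freely. All mice were fasted before sacrifice and received carboxymethyl cellulose by gavage in between, and only the CR mice were given part of a portion just before the fast. All were killed in the afternoon, over consecutive weeks, and neither the hour of a single mouse nor its corticosterone is given in the sources used here. The daily portions of the CR mice had also been given in the afternoon, within the span of hours in which mice were killed.

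Glucocorticoids reach liver cells from the blood, and the enzyme encoded by Hsd11b1 regenerates the active hormone inside the cell. The hormone binds its receptor, the product of Nr3c1, which is held ready in the cytoplasm by chaperones and then moves to the nucleus, where it binds DNA at inverted repeats of a short sequence, the glucocorticoid response element. In the liver it is known for switching on gluconeogenesis and amino acid breakdown during fasting, and it also induces genes that limit its own action, among them Fkbp5. Most other genes of the set act downstream. Tsc22d3 (GILZ), Zbtb16 (PLZF) and Klf9 are transcriptional regulators, Sgk1 is a kinase, Dusp1 dephosphorylates MAP kinases and Errfi1 restrains the epidermal growth factor receptor. Tsc22d1 is a relative of Tsc22d3 in the same family of leucine zipper regulators. Whether it is a target of the receptor in liver was not tested here.

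Promoter windows, each running from 250 bases before to 50 bases after a transcription start, were available from RefSeq (GRCm38.p6) for 8 of the 10 genes, 20 windows in all. Nr3c1 and Zbtb16 had no window. Both strands were searched for the inverted repeat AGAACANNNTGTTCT, for its left arm alone, AGAACA, and for the cyclic AMP response element TGACGTCA, which reads the same on both strands. The arm also counts where it lies in an inverted repeat. The inverted repeat was present in 1 window, of Sgk1, and in 3 of all 32851 windows (0.00913%). The arm was found in 5 of the 20 windows (25.0%), against 18.97% of all windows. These belonged to Tsc22d1, Tsc22d3 and Sgk1. The cyclic AMP element was found in 1 window each of Dusp1 and Errfi1, against 1.79% of all windows. The windows of Hsd11b1, Fkbp5 and Klf9 held none of these motifs. Below are the window of Sgk1 with the inverted repeat in capitals, and those of Dusp1 and Errfi1 with the cyclic AMP element in capitals. These 3 are shown because they held a match. The last is the window of Tsc22d1 with the arm in capitals, because Tsc22d1 was the gene that differed between diet groups. The windows shown lie at chr10:21993640-21993939 (plus strand), chr17:26508423-26508722 (minus strand), chr4:150854820-150855119 (plus strand) and chr14:76503976-76504275 (plus strand), in this order.
Sgk1: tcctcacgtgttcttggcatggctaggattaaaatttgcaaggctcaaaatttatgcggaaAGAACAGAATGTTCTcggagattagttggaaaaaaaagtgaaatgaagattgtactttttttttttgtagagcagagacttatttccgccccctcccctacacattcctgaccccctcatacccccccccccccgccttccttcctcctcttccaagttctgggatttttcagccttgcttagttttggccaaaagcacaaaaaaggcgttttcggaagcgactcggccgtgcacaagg
Dusp1: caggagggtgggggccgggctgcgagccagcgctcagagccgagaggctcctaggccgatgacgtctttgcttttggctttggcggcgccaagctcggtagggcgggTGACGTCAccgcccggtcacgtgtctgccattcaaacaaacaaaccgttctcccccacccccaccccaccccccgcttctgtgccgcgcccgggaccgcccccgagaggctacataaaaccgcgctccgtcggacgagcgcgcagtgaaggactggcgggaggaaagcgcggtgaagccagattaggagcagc
Errfi1: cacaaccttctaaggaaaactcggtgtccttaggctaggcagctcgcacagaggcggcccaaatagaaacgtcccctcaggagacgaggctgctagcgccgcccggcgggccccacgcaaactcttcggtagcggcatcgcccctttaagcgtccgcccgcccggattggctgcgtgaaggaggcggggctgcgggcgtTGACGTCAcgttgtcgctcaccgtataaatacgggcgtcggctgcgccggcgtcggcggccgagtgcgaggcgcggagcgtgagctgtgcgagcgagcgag
Tsc22d1: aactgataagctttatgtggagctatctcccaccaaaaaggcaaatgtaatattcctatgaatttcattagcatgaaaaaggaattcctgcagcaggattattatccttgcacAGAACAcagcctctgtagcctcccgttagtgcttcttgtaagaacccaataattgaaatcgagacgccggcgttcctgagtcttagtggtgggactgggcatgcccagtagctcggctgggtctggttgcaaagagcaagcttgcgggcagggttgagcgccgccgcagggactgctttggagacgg

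Counted from the start site, the capitals begin at -189 in Sgk1, -143 in Dusp1, -51 in Errfi1 and -137 in Tsc22d1. A match describes the letters of the window only. Sequence outside the windows was not searched, so the lack of a match does not mean that a gene lacks such an element. Sgk1 has 6 windows and Tsc22d1 has 5 in the table, and the files do not tell which start site the livers used.

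Levels are log2 intensities after Robust Multiarray Average (RMA), so a difference of 1 is a doubling, and levels of different genes cannot be ranked against each other. The array medians over all genes lay between 5.87 and 6.16, and the mean correlation of an array with the others lay between 0.981 and 0.990. The hepatocyte markers had mean levels between 11.24 (Fga) and 13.62 (Alb), all well above the intensity threshold of 4.32 on the log2 scale, while the adipocyte marker Adipoq, at 3.37, lay below it. As whole liver was used, fewer cells of a type and less RNA per cell cannot be told apart. Differences are limma estimates from a fit over all 27 arrays, with p-values adjusted after Benjamini and Hochberg across the 13993 genes left by the filter.

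Of the 10 genes, Tsc22d1 alone passed an adjusted p of 0.05 in any of the 6 comparisons between diets. It was higher in CR-MF than in CR, higher in MF than in CR, and lower in CR than in C. In CR-MF minus CR, 1 of 10 genes was called higher, against 0.236% of all genes tested, and 0 were called lower, against 0.364%. In MF minus CR, 1 of 10 was called higher, against 2.8% of all genes, and 0 lower, against 2.62%. In CR minus C, 0 of 10 were called higher, against 0.765% of all genes, and 1 was called lower, against 0.808%.

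In the other 3 comparisons limma called none of the 10 genes. Between CR-MF and MF, 0.55% of all genes were called higher and 0.893% lower. None of the 10 had an unadjusted p under 0.05, against 14.8% of all genes. Between CR-MF and C, 0.136% of all genes were called higher and 0.164% lower, and again none of the 10 had an unadjusted p under 0.05, against 11.4% of all genes. Between MF and C, 0% of all genes were called higher and 0% lower. There 1 of the 10, Tsc22d1, had an unadjusted p under 0.05, against 3.97% of all genes.

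**Figure D1:**
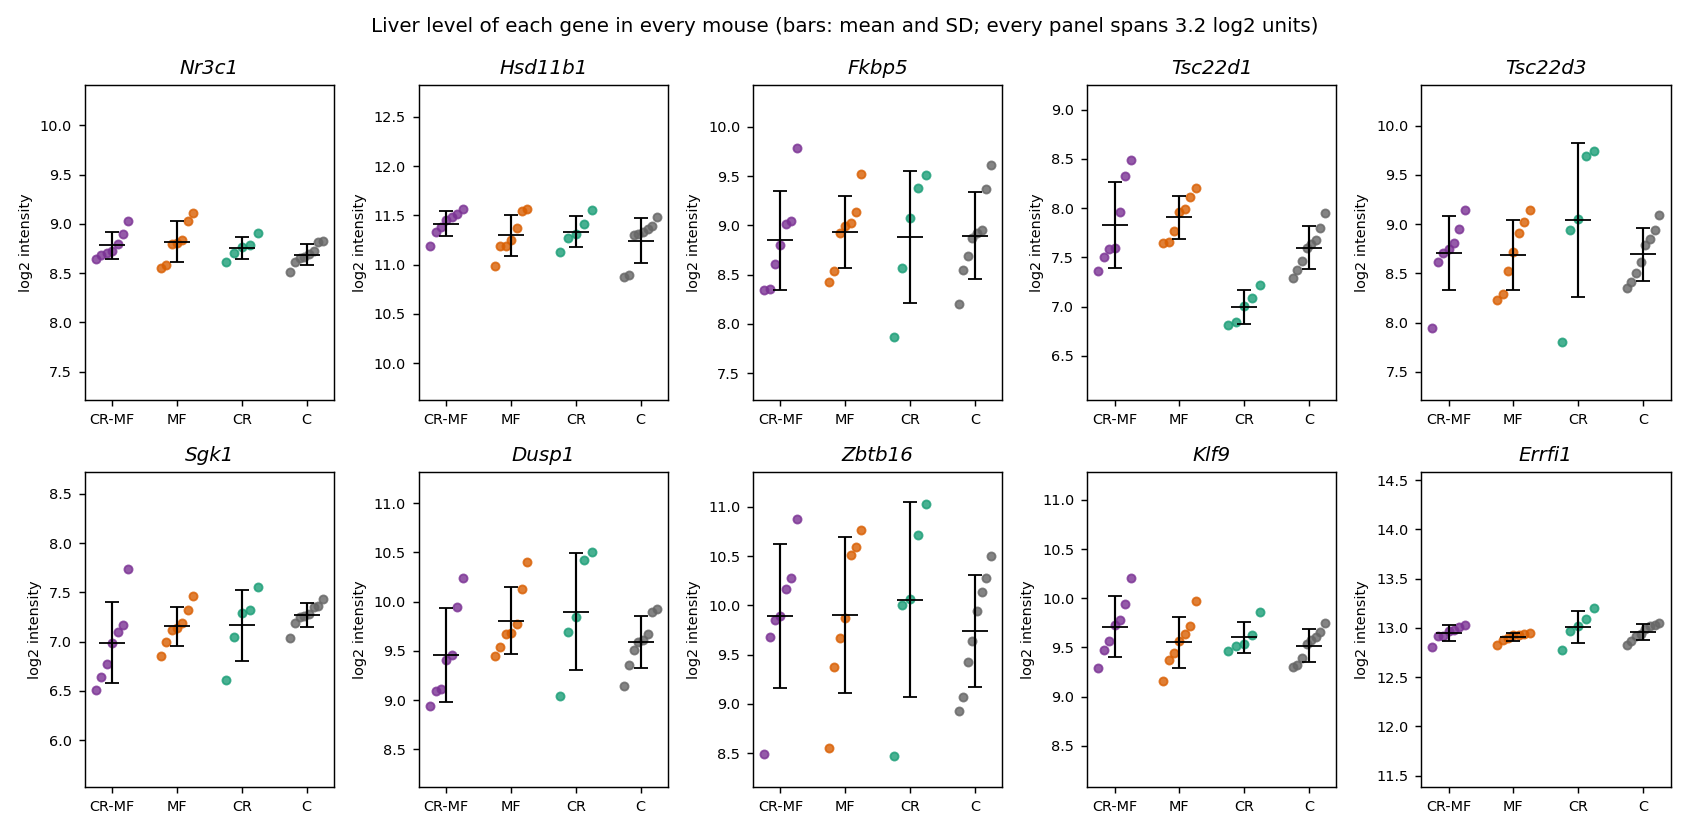
Log2 intensity (vertical axis) of each of the 10 genes in every mouse, by diet group (horizontal axis), with the group mean and SD as bars; every panel spans the same range. The 5 CR mice lay between 6.81 and 7.22 for Tsc22d1, below every mouse of the other groups, while the groups overlapped for the other 9 genes.

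The receptor itself passed the test in no comparison. Nr3c1 averaged 8.78 ± 0.14 in CR-MF, 8.81 ± 0.21 in MF, 8.75 ± 0.11 in CR and 8.69 ± 0.11 in C (SD, n = 7, 7, 5 and 8). Its widest difference was that of MF minus C, 0.13 ± 0.08 (SE, limma, adjusted p = 1). The 95% interval of that difference ran from -0.03 to 0.29, so that a change of the receptor mRNA beyond 0.29 on the log2 scale lay outside it. Across single mice, Nr3c1 stayed between 8.51 (the C mouse A4_3) and 9.11 (the MF mouse C4_1).

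Hsd11b1, the enzyme that regenerates active hormone, was nearly as even. It averaged 11.42 ± 0.13 in CR-MF, 11.30 ± 0.21 in MF, 11.34 ± 0.16 in CR and 11.24 ± 0.23 in C. The widest difference, CR-MF minus C, was 0.17 ± 0.10 (SE, limma, adjusted p = 0.5). The lowest level among the CR-MF mice was 11.19, within the range of 10.88 to 11.48 of the C mice, of which A4_13 and A4_9 stood below the rest.

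Fkbp5, a co-chaperone that lowers the affinity of the receptor for its hormone and is induced by it, had almost the same mean in all groups but varied widely between mice. The CR-MF mice ranged from 8.34 to 9.78 with a median of 8.80. The MF mice ranged from 8.42 to 9.52 with a median of 8.99. The 5 CR mice had 7.87, 8.57, 9.07, 9.38 and 9.51, and the C mice ranged from 8.20 to 9.61 with a median of 8.90. All groups overlapped, and the spread within CR alone exceeded any difference between means. The 6 differences lay between -0.09 (CR-MF minus MF) and 0.06 (MF minus CR), and their intervals reached from -0.59 to 0.61.

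Tsc22d1 was the gene of the set that was called between diet groups. In CR-MF the lowest level was 7.36, the median 7.59 and the highest 8.49. In MF these were 7.65, 7.96 and 8.20. The CR mice had 6.81 (B4_1), 6.84 (B4_7), 7.01 (B4_5), 7.09 (B4_3) and 7.22 (B4_13), and in C the lowest, median and highest levels were 7.29, 7.61 and 7.95. Every CR mouse was thus below every mouse of the other 3 groups, whereas CR-MF, MF and C overlapped. The CR-MF mice were the most uneven: BC4_9 (8.49) and BC4_11 (8.33) stood above all MF mice, and BC4_13, BC4_3, BC4_15 and BC4_5, between 7.36 and 7.59, stood below all of them.

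Tsc22d1 was 0.84 ± 0.16 higher in CR-MF than in CR (SE, 1.79-fold, limma, adjusted p = 0.0151). In MF it was 0.91 ± 0.16 higher than in CR (1.88-fold, limma, adjusted p = 0.00236). CR minus C was -0.61 ± 0.16 (1.52-fold lower in CR, limma, adjusted p = 0.046). By unadjusted p the gene stood at rank 16, 29 and 190 among 13993 genes in these comparisons, which share the CR arrays. From high to low, the means were 7.91 ± 0.22 in MF, 7.83 ± 0.44 in CR-MF, 7.60 ± 0.22 in C and 6.99 ± 0.17 in CR. CR-MF minus MF was -0.08 ± 0.15 (limma, adjusted p = 0.862), and CR-MF minus C was 0.23 ± 0.14 (limma, adjusted p = 0.554). MF minus C was 0.31 ± 0.14 (limma, adjusted p = 1).

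The difference between CR and C was the least stable of the 3. It lay between -0.66 and -0.55 when 1 mouse was left out, but 11 of 13 such fits lost the call (limma, adjusted p from 0.0281 to 0.125 over the 13), and only those without A4_9 or A4_1 of C kept it. CR-MF minus CR lost its call only without the CR mouse B4_1 (0.79, limma, adjusted p = 0.0579), and MF minus CR kept its call whichever mouse was left out. The annotation assigns a second, dimmer transcript cluster to Tsc22d1, but this assignment is in doubt. Of the 20 named clusters nearest to it by ID, 18 belong to genes of chromosome X and 0 to genes of chromosome 14, which carries Tsc22d1, whereas all 20 neighbours of the cluster used lie on chromosome 14. The second cluster gave 0.38 ± 0.14 for CR-MF minus CR (limma, adjusted p = 0.215), 0.30 ± 0.14 for MF minus CR (adjusted p = 0.178) and -0.09 ± 0.13 for CR minus C (adjusted p = 0.761).

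The array names carry a code and a row letter, read here as plate and well row. Within the code G150, which held 19 of the arrays, Tsc22d1 differed by 0.91 between CR-MF and CR, by 1.03 between MF and CR and by -0.80 between CR and C (limma, adjusted p = 0.0697, 0.0339 and 0.0643). With the single mouse of each group under code G151, these differences were 0.28, 0.55 and -0.15. Under code G152, again with 1 mouse a group, they were 1.24, 0.90 and -0.21. All CR-MF arrays lay in row H, which held no other group, so diet and row cannot be told apart for them. Within row G, with 7 MF and 2 CR mice, MF minus CR was 0.75 (limma, adjusted p = 0.082), and within row F, with 3 CR and 8 C mice, CR minus C was -0.71 (limma, adjusted p = 0.0872).

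Markers of the other cells of whole liver were also set beside Tsc22d1. Between MF and CR, 1 of 6 endothelial markers (Vwf, 0.66 ± 0.18, limma, adjusted p = 0.034) and 1 of 6 stellate cell markers (Pdgfrb, 0.65 ± 0.16, adjusted p = 0.0195) were higher in MF, and none was lower. Of all genes, 2.8% were called higher there and 2.62% lower. Vwf lost its call in 7 of 12 fits that left out 1 mouse (highest adjusted p = 0.0745) and Pdgfrb in 2, without B4_1 or B4_3 (highest adjusted p = 0.0572). In MF minus CR 4 of 6 endothelial and 4 of 6 stellate markers had an unadjusted p under 0.05, against 23.7% of all genes. In CR-MF minus CR limma called none of either list, with 1 endothelial and 1 stellate marker at an unadjusted p under 0.05, against 12.3% of all genes. In CR minus C it again called none, with 3 endothelial and 2 stellate markers at an unadjusted p under 0.05, against 19.8% of all genes. Of 4 cholangiocyte markers limma called none in these 3 comparisons, with 1 in each at an unadjusted p under 0.05. The shares of all genes were 23.7% in MF minus CR, 12.3% in CR-MF minus CR and 19.8% in CR minus C. In CR-MF minus MF all 4 had an unadjusted p under 0.05, against 14.8% of all genes. There 1 of the 4, Epcam, was called lower (-0.78 ± 0.18, limma, adjusted p = 0.0216), against 0.893% of all genes. This call was lost in 3 of 14 fits that left out 1 mouse. The mean endothelial level, relative to that of all mice, ran from -0.30 to 0.36 in CR-MF, from -0.21 to 0.70 in MF, from -0.24 to 0 in CR and from -0.28 to 0.20 in C. The stellate level ran from -0.43 to 0.50 in CR-MF, from -0.09 to 0.45 in MF, from -0.22 to -0.08 in CR and from -0.23 to 0.23 in C. BC4_9 and BC4_11, which had the highest Tsc22d1, lay far apart on both scales, at -0.30 and 0.36 for the endothelial and at -0.41 and 0.50 for the stellate level. Over all mice, the relation of Tsc22d1 to the endothelial, stellate and cholangiocyte markers was not tested.

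Markers of immune cells had their lowest mean levels in CR, as Tsc22d1 did. On the same scale, the mean of 7 T and NK cell markers was 0 in CR-MF, 0.04 in MF, -0.45 in CR and 0.25 in C. It ran from -0.73 to 1.45 in CR-MF, from -0.74 to 1.55 in MF, from -0.56 to -0.32 in CR and from -0.73 to 0.98 in C. The mean of 5 B and plasma cell markers was -0.15 in CR-MF, 0.20 in MF, -0.44 in CR and 0.23 in C, with ranges of -0.77 to 0.30, -0.44 to 3.10, -0.60 to -0.19 and -0.65 to 1.98 in this order. The CR mice thus lay within the ranges of the other groups, but close together and below the mean of all mice. The mean of 7 Kupffer cell markers was -0.05 in CR-MF, -0.15 in MF, -0.26 in CR and 0.34 in C, with ranges of -0.65 to 0.79, -0.66 to 0.72, -0.49 to -0.05 and -0.57 to 1.22. For 4 neutrophil markers it was 0.01 in CR-MF, 0.46 in MF, -0.40 in CR and -0.16 in C, with ranges of -0.59 to 0.86, -0.45 to 2.61, -0.67 to -0.08 and -0.62 to 0.39. Limma called none of these immune markers in CR-MF minus CR, MF minus CR or CR minus C. In MF minus CR, an unadjusted p under 0.05 was reached by 3 of 7 Kupffer cell, 1 of 6 T and NK cell, 2 of 5 B and plasma cell and 3 of 4 neutrophil markers tested, against 23.7% of all genes. In CR minus C it was reached by 4, 1, 2 and 0 of them, with Vsig4, a receptor of Kupffer cells, at -1.06 ± 0.31 (limma, adjusted p = 0.067), and in CR-MF minus CR by none. Of all these markers only Klrb1c, of NK cells, was below the intensity threshold. The part of these cells in the level of Tsc22d1 was not tested.

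**Figure D2:**
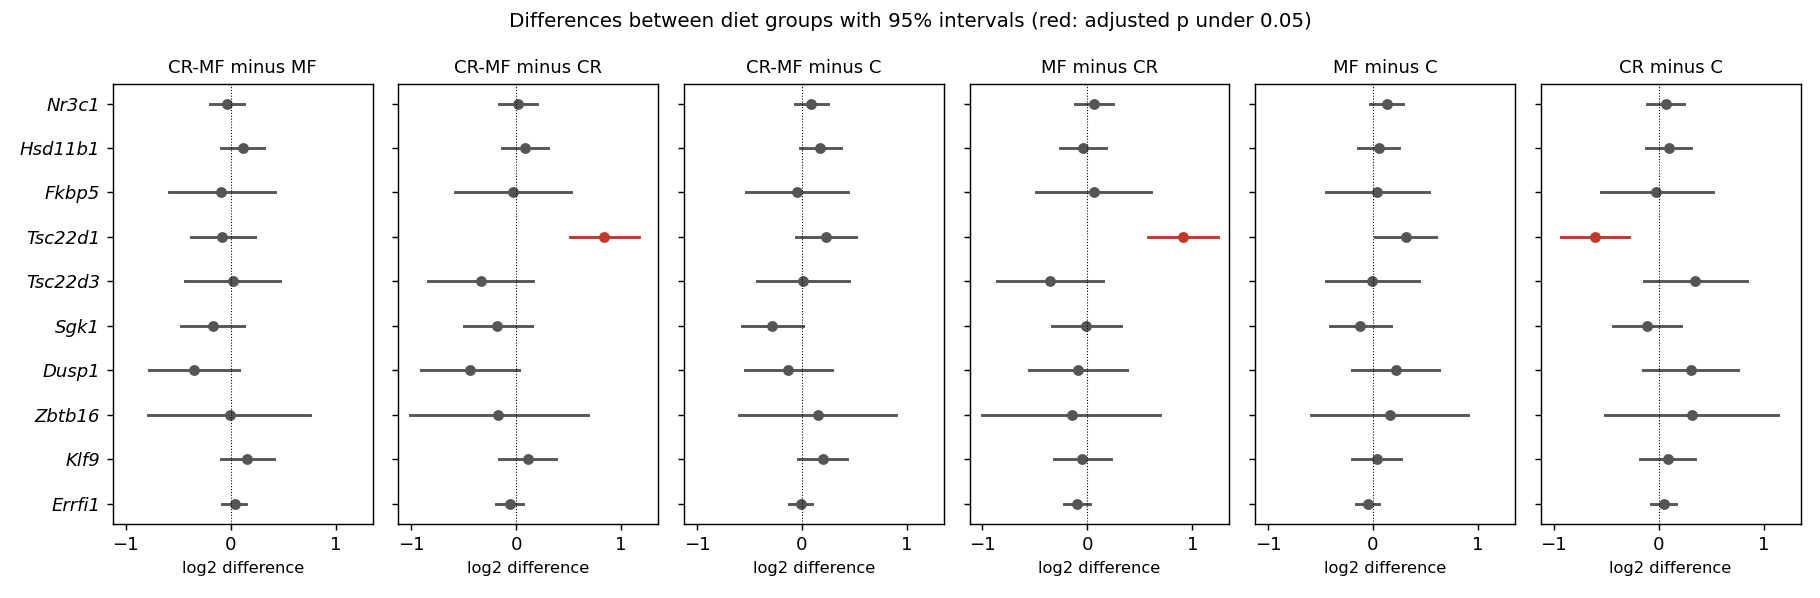
Log2 difference between diet groups (horizontal axis) with its 95% interval for each gene (vertical axis), in a panel per comparison; red marks an adjusted p under 0.05. Only Tsc22d1 is red, in CR-MF minus CR (0.84), MF minus CR (0.91) and CR minus C (-0.61).

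Tsc22d3, a relative of Tsc22d1 that carries much of the anti-inflammatory action of glucocorticoids in immune cells, had its highest mean where Tsc22d1 had its lowest. The CR-MF mice ranged from 7.95 to 9.14 with a median of 8.75, and the MF mice from 8.23 to 9.14 with a median of 8.72. The 5 CR mice had 7.80, 8.94, 9.05, 9.69 and 9.74, and the C mice ranged from 8.35 to 9.09 with a median of 8.71. B4_3 and B4_7 of CR were above every other mouse and B4_5 of CR was below all, so CR enclosed the other groups. MF minus CR was -0.36 ± 0.24 (SE, limma, adjusted p = 0.385) and CR minus C was 0.35 ± 0.24 (adjusted p = 0.429).

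Sgk1, a kinase that controls ion channels and FOXO factors, averaged 6.99 ± 0.41 in CR-MF, 7.16 ± 0.20 in MF, 7.16 ± 0.36 in CR and 7.27 ± 0.12 in C. Its widest difference was that of CR-MF minus C, -0.28 ± 0.14 (SE, limma, adjusted p = 0.446). The CR-MF mice ranged from 6.51 to 7.74, which enclosed the C range of 7.04 to 7.43. BC4_15 supplied the highest level, and the other 6 CR-MF mice had at most 7.17.

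Dusp1, the phosphatase that shuts off MAP kinases, averaged 9.46 ± 0.48 in CR-MF, 9.80 ± 0.34 in MF, 9.89 ± 0.60 in CR and 9.59 ± 0.26 in C. CR-MF minus CR was -0.44 ± 0.23 (SE, limma, adjusted p = 0.45) and CR-MF minus MF was -0.35 ± 0.21 (adjusted p = 0.465). The CR-MF mice reached 10.24 (BC4_15) and the CR mice went down to 9.04 (B4_5), so that these groups overlapped, and they did so without this pair of mice too.

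Zbtb16, a zinc finger repressor that is strongly induced by glucocorticoids in many tissues, had the widest spread of the set. The CR-MF mice ranged from 8.49 to 10.88 with a median of 9.89. The MF mice ranged from 8.55 to 10.77 with a median of 9.87. Of the 5 CR mice, B4_13 had 10 and the others had 8.47, 10.07, 10.72 and 11.03, and the C mice ranged from 8.93 to 10.50 with a median of 9.79. The lowest mouse was BC4_11 in CR-MF, C4_11 in MF, B4_5 in CR and A4_1 in C, and the groups overlapped throughout. No difference exceeded 0.32 ± 0.40 (CR minus C, SE, limma, adjusted p = 0.709), and the intervals reached from -1.01 to 1.14, so changes of about 1 on the log2 scale could not be told from 0 for this gene.

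Klf9, a Krüppel-like factor induced by glucocorticoids and thyroid hormone, and Errfi1, an inhibitor of the epidermal growth factor receptor, had smaller spreads. Klf9 averaged 9.71 ± 0.30 in CR-MF, 9.55 ± 0.26 in MF, 9.60 ± 0.16 in CR and 9.52 ± 0.17 in C. Its widest difference was 0.20 ± 0.12 (CR-MF minus C, SE, limma, adjusted p = 0.542). Errfi1 averaged 12.95 ± 0.08 in CR-MF, 12.91 ± 0.04 in MF, 13.01 ± 0.16 in CR and 12.96 ± 0.08 in C. Its widest difference was -0.10 ± 0.06 (MF minus CR, adjusted p = 0.319).

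Several targets varied together among mice on the same diet. The plot of levels relative to the diet group shows the same mice at the ends for one gene after another. B4_5 was the lowest CR mouse for all 6 of Fkbp5, Sgk1, Dusp1, Zbtb16, Klf9 and Errfi1, and BC4_15 was the highest CR-MF mouse for all 6. C4_11 was the lowest MF mouse for 4 of them, and A4_1 the lowest C mouse for 3. These 6 are the genes joined by the correlations given below in the same mice, so the shared ends are no separate result. B4_5 was also the lowest CR mouse for Hsd11b1 (11.13) and Tsc22d3 (7.80), though not for Nr3c1 or Tsc22d1. Relative to the mean of its group, B4_5 had -1.01 for Fkbp5, -0.86 for Dusp1 and -1.59 for Zbtb16. BC4_15 had 0.93 for Fkbp5, 0.79 for Dusp1 and 0.99 for Zbtb16. The arrays of B4_5 and BC4_15 had medians of 5.95 and 5.94 and both a mean correlation of 0.986 with the other arrays. C4_11 had a median of 6.13 and a mean correlation of 0.981, the lowest of all arrays, and the highest levels of B and plasma cell (3.10) and T and NK cell markers (1.55) of all mice. The median of A4_1 was 5.97 and its mean correlation 0.989. The part of these features in the levels of the targets was not tested.

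**Figure D3:**
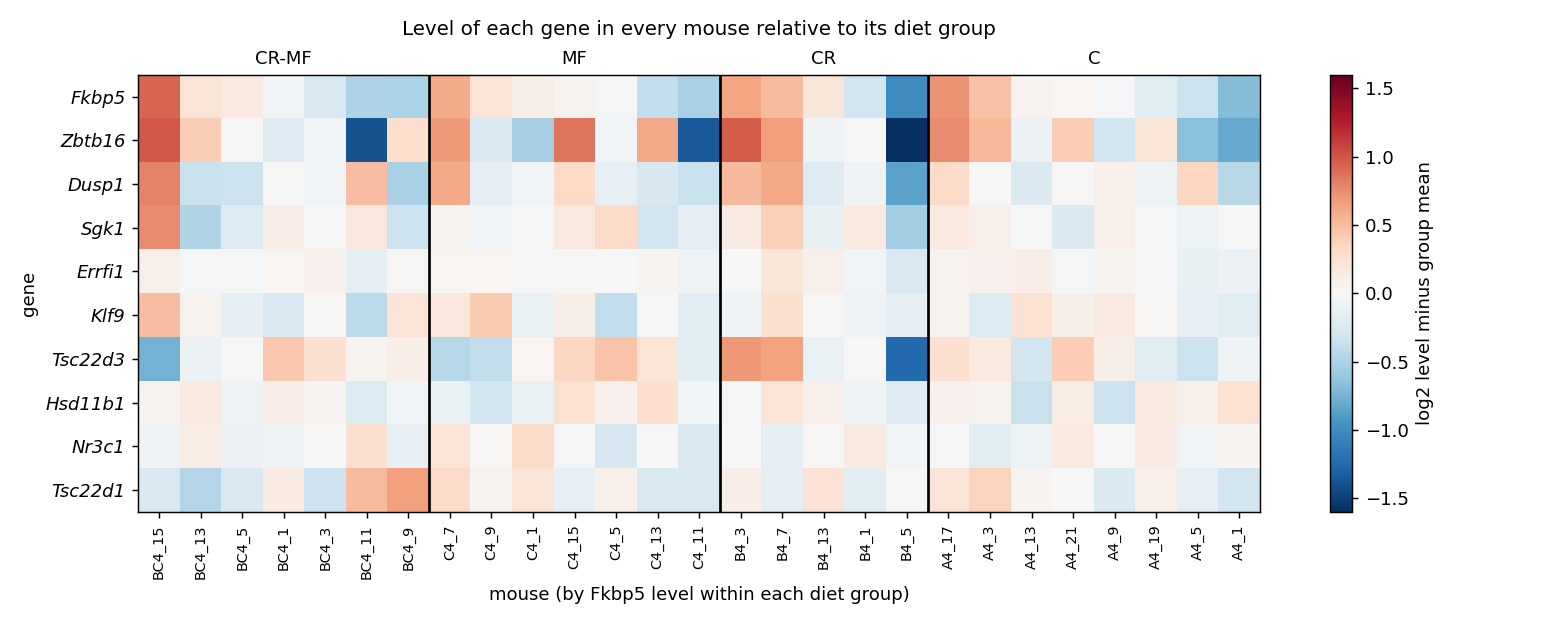
Log2 level minus the diet group mean (colour) of the 10 genes (vertical axis) in each mouse (horizontal axis), ordered within each diet group by Fkbp5. Zbtb16 and Dusp1 follow the order of Fkbp5 in many mice (B4_5 has -1.01, -1.59 and -0.86 for Fkbp5, Zbtb16 and Dusp1), whereas Nr3c1 and Tsc22d1 do not.

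Correlations were computed over the 27 mice after the mean of each diet group had been removed, with permutation tests that shuffled mice within groups and adjustment over all 45 pairs. Of these pairs, 6 had an adjusted p under 0.05, all positive. Fkbp5 and Zbtb16 had r = 0.76 (permutation p = 3e-05, adjusted p = 0.00135) and rho = 0.68 (permutation p = 0.00042, adjusted p = 0.00945). Sgk1 and Dusp1 had r = 0.77 (permutation p = 6e-05, adjusted p = 0.00135) and rho = 0.72 (permutation p = 0.00018, adjusted p = 0.0081). Both pairs kept their relation without the pair of mice farthest from the median, B4_5 and BC4_15, with r = 0.67 and 0.65.

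**Figure D4:**
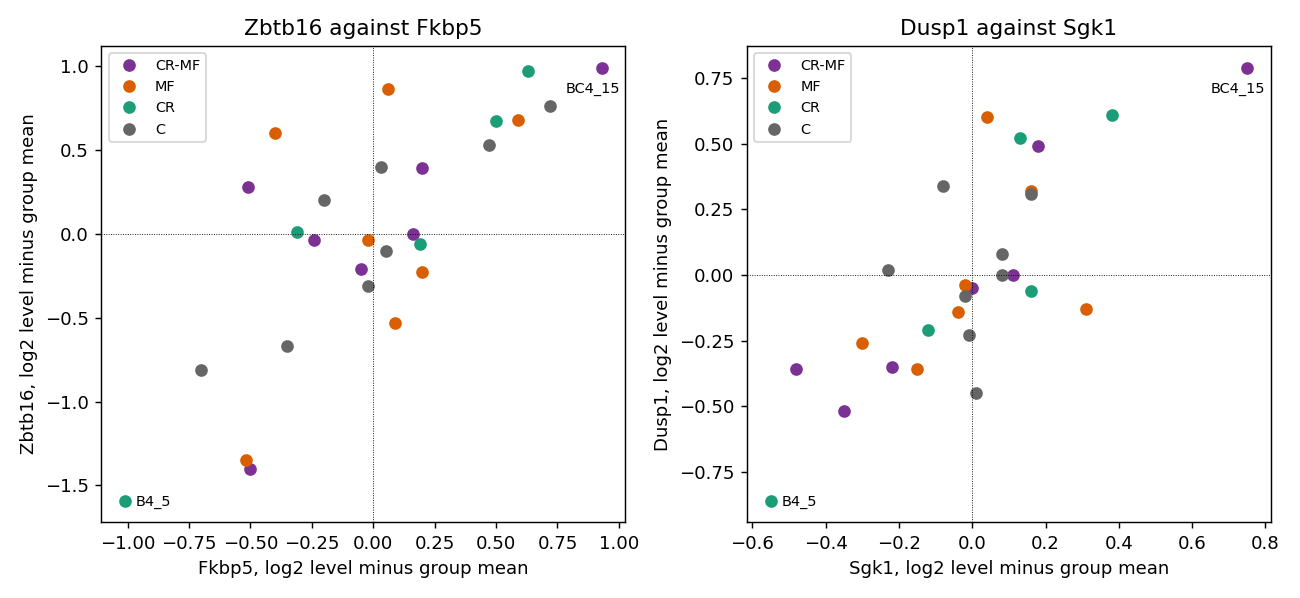
Level of Zbtb16 against Fkbp5 and of Dusp1 against Sgk1, each as log2 level minus the diet group mean (both axes), with 1 point per mouse coloured by diet. The points rise together in both panels (r = 0.76 and 0.77), with B4_5 lowest and BC4_15 highest on every axis.

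The third pair by permutation p was Zbtb16 and Errfi1, with r = 0.73 (permutation p = 0.00012, adjusted p = 0.0018) and rho = 0.53 (permutation p = 0.0087, adjusted p = 0.0652). Klf9 and Errfi1 had r = 0.56 (permutation p = 0.00049, adjusted p = 0.00551) and rho = 0.56 (permutation p = 0.0035, adjusted p = 0.0394). Errfi1 varied with both regulators within a narrow range of its own level. Fkbp5 and Errfi1 had r = 0.70 (permutation p = 0.00064, adjusted p = 0.00576) and rho = 0.61 (permutation p = 0.00293, adjusted p = 0.0394). Fkbp5 and Dusp1 had r = 0.67 (permutation p = 0.00086, adjusted p = 0.00645) and rho = 0.55 (permutation p = 0.00783, adjusted p = 0.0652). By rank, 4 of the 6 pairs passed the adjustment.

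Without the pair of mice farthest from the median of the first gene, r was 0.57 for Zbtb16 and Errfi1, 0.48 for Klf9 and Errfi1, 0.59 for Fkbp5 and Errfi1 and 0.50 for Fkbp5 and Dusp1. Within the 19 arrays of code G150 the 6 values of r were 0.73 for Fkbp5 and Zbtb16, 0.85 for Sgk1 and Dusp1, 0.77 for Zbtb16 and Errfi1, 0.52 for Klf9 and Errfi1, 0.72 for Fkbp5 and Errfi1 and 0.80 for Fkbp5 and Dusp1. Within the diet groups that have at least 6 mice, Fkbp5 and Zbtb16 had r = 0.72 in CR-MF, 0.47 in MF and 0.88 in C. Sgk1 and Dusp1 had r = 0.94 in CR-MF, 0.43 in MF and 0.10 in C, and whether the groups differ in this was not tested.

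**Figure D5:**
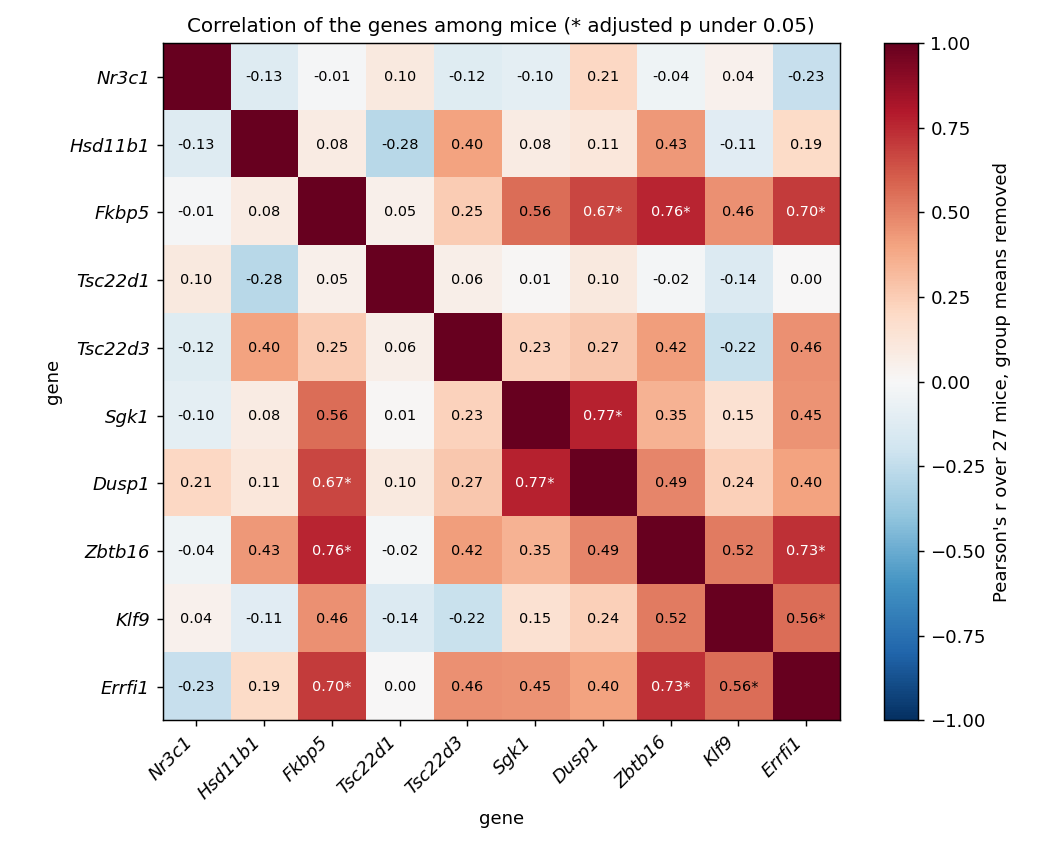
Pearson's r (colour and number) between each pair of the 10 genes, named on both axes, over 27 mice with diet group means removed; stars mark an adjusted p under 0.05. The 6 starred pairs join Fkbp5, Zbtb16, Dusp1, Sgk1, Errfi1 and Klf9, with r between 0.56 and 0.77, and none involves Nr3c1, Hsd11b1, Tsc22d1 or Tsc22d3.

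The receptor, the activating enzyme and both TSC22 genes had no called pair. For Nr3c1, r lay between -0.23 (with Errfi1) and 0.21 (with Dusp1). For Tsc22d1, it lay between -0.28 (with Hsd11b1) and 0.10 (with Nr3c1 and with Dusp1). Tsc22d3 reached 0.46 with Errfi1 and 0.42 with Zbtb16, and B4_5 was the lowest CR mouse for it as well, but BC4_15, the highest CR-MF mouse for the 6 targets, was the lowest CR-MF mouse for Tsc22d3, at -0.76 relative to its group.

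Among all 13992 other genes that passed the filter, those most like Fkbp5 across the 27 mice, by r after removal of group means, were Nedd4l (0.86), a ubiquitin ligase, Ppip5k2 (0.85), Slc38a2 (0.84), an amino acid transporter, Il1r1 (0.83) and Tat (0.82), tyrosine aminotransferase. Zbtb16 came at rank 12, Errfi1 at 41, Dusp1 at 57, Sgk1 at 160 and Klf9 at 409. The gene least like Fkbp5 was Zmym3 (-0.85), and the clock gene Per3 (-0.79) was also near the bottom. For Tsc22d3 the order was a different one, led by Cdip1 (0.86) and Zhx3 (0.83), with Errfi1 as its nearest member of the set at rank 614. These values describe 27 mice whose arrays share a normalization, and are given without a test.

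Genes that have been described as glucocorticoid targets in metabolism were also set beside Fkbp5. All 15 such genes of glucose and amino acid metabolism had a positive r with it, with a median of 0.36, against -0.04 for all genes tested. Tat (0.82), the insulin-like growth factor binding protein gene Igfbp1 (0.78) and Foxo1 (0.73) were highest and glutamine synthetase, Glul (0.08), lowest. For 17 targets in growth, stress and inflammation the median was 0.36 as well, from -0.11 (Klf15) to 0.73 (Cdkn1a). Positive medians were not confined to targets. The median was 0.30 for 6 endothelial markers, 0.28 for 14 immediate early genes and 0.23 for 7 Kupffer cell markers, all of which were positive. It was -0.18 for the 11 corticosteroid genes, -0.02 for the 12 chaperones and -0.12 for 6 T and NK cell markers. Of 15 clock genes, Nfil3 (0.75) and Arntl (0.66) ran with Fkbp5, and Per3 (-0.79), Tef (-0.56) and Nr1d2 (-0.42) ran against it, with a median of -0.06. Between MF and CR limma called none of these clock genes, but 7 of 15 had an unadjusted p under 0.05, against 23.7% of all genes. In CR-MF minus CR 4 did, against 12.3%, and in CR minus C 3, against 19.8%. In CR minus C 1 of the 15, Cry1, was called higher, against 0.765% of all genes, and is described below with the coregulators. The part of the time of day, of the hour of feeding or of the fast in the relations with Fkbp5 and in the differences from CR was not tested.

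Among genes of the machinery around the receptor, limma called Smarca4, Cry1 and Akr1c6 between diets. Of 12 chaperones and folding factors that carry the receptor, limma called none in any of the 6 comparisons. Between 0 and 3 of them had an unadjusted p under 0.05, with 3 in MF minus CR, against 23.7% of all genes. Of 15 coregulators, 4 had an unadjusted p under 0.05 in CR-MF minus CR, against 12.3% of all genes, and 3 in MF minus CR, against 23.7%. In CR-MF minus CR and in MF minus CR 1 of 15 was called higher, against 0.236% and 2.8% of all genes. In CR minus C 1 was called higher and 1 lower, against 0.765% and 0.808%. Smarca4, the ATPase of the SWI/SNF remodelling complex, was lowest in CR, as Tsc22d1 was. It averaged 9.25 ± 0.07 in CR-MF, 9.40 ± 0.11 in MF, 8.94 ± 0.16 in CR and 9.29 ± 0.11 in C. The differences were 0.31 ± 0.07 for CR-MF minus CR, 0.46 ± 0.07 for MF minus CR and -0.34 ± 0.07 for CR minus C (SE, limma, adjusted p = 0.0333, 0.000685 and 0.0124). With 1 mouse left out, the first lost its call in 7 of 12 fits (highest adjusted p = 0.125), the second in none, and the third only without B4_1 (adjusted p = 0.0514). Cry1, a clock repressor that also binds the receptor, was 0.86 ± 0.22 higher in CR than in C (limma, adjusted p = 0.0466), a call that was lost in 11 of 13 such fits (0.67 to 1.15, adjusted p from 0.00242 to 0.151). Of 11 genes for carriage, activation and clearance of corticosteroids, 4 had an unadjusted p under 0.05 in MF minus CR, against 23.7% of all genes. In CR-MF minus MF 3 did, against 14.8%. Only Akr1c6, a hydroxysteroid dehydrogenase, was called. It was called higher in CR-MF minus MF, as were 0.55% of all genes, and lower in MF minus CR, as were 2.62%. The differences were 0.46 ± 0.11 and -0.45 ± 0.13 (limma, adjusted p = 0.039 and 0.037). These calls were lost in 8 of 14 and in 7 of 12 fits that left out 1 mouse, with adjusted p up to 0.0942 and 0.0973.

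Genes outside the set that have been described as targets of the receptor did differ, mainly between MF and CR. Of 15 targets in glucose and amino acid metabolism, 5 were called lower in MF than in CR and 0 higher, against 2.62% and 2.8% of all genes. The median difference was -0.29 over the list, against -0.01 over all genes. Without B4_3, 1 of the 15 was called in MF minus CR. In CR-MF minus CR 2 of the 15 were called lower, against 0.364% of all genes, and in CR minus C 1 was called higher, against 0.765%. Ppargc1a, the coactivator of gluconeogenesis, averaged 8.16 ± 0.16 in CR-MF, 8.17 ± 0.29 in MF, 9.21 ± 0.46 in CR and 8.24 ± 0.38 in C. Every CR mouse lay above every mouse of the other groups, where for Tsc22d1 every CR mouse lay below. The differences were -1.05 ± 0.18 for CR-MF minus CR, -1.04 ± 0.18 for MF minus CR and 0.97 ± 0.18 for CR minus C (SE, limma, adjusted p = 0.0098, 0.00236 and 0.0091). Got1, aspartate aminotransferase, gave -0.70 ± 0.17 for CR-MF minus CR (limma, adjusted p = 0.0467) and -0.72 ± 0.17 for MF minus CR (adjusted p = 0.0144). Every call of Ppargc1a was kept whichever mouse was left out, whereas Got1 lost that of CR-MF minus CR in 10 of 12 fits (highest adjusted p = 0.154) and that of MF minus CR without B4_3 (adjusted p = 0.0553).

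Of 17 targets in growth, stress and inflammation, MF mice had 4 above and 2 below the CR level at an adjusted p under 0.05. The shares of all genes called there were 2.8% and 2.62%. CR mice had 1 above and 2 below the C level, against 0.765% and 0.808% of all genes. None was called in the other 4 comparisons. An unadjusted p under 0.05 was reached by 10 of the 17 in MF minus CR, against 23.7% of all genes. It was reached by 5 in CR minus C, against 19.8%, and by 6 in CR-MF minus CR, against 12.3%. In CR-MF minus MF 6 reached it, against 14.8%. In CR-MF minus C and in MF minus C 1 did, against 11.4% and 3.97%. Mt1, a metallothionein, averaged 11.48 ± 0.75 in CR-MF, 11.90 ± 0.65 in MF, 9.96 ± 1.03 in CR and 11.53 ± 0.39 in C. It was 1.94 ± 0.38 higher in MF than in CR and -1.56 ± 0.37 in CR minus C (SE, limma, adjusted p = 0.00554 and 0.0286). Klf15, a regulator of amino acid breakdown, ran the other way, at -0.66 ± 0.11 in MF minus CR and 0.44 ± 0.11 in CR minus C (adjusted p = 0.00189 and 0.0353). Both genes kept their calls in MF minus CR whichever mouse was left out. In CR minus C, Mt1 lost its call in 6 of 13 such fits (highest adjusted p = 0.0908) and Klf15 in 7 (highest adjusted p = 0.125), and without A4_3, A4_17, B4_1 or B4_3 none of the 17 was called. Among 14 immediate early genes limma called none in any comparison, with 0 to 5 at an unadjusted p under 0.05. There were 5 in MF minus CR, against 23.7% of all genes, and 4 in MF minus C, against 3.97%. Their median in MF minus CR was 0.46, against -0.01 over all genes. Among 16 relatives and substrates of the 10 genes limma likewise called none, with 1 to 6 at an unadjusted p under 0.05. There were 6 in MF minus CR, against 23.7% of all genes, and 5 in CR minus C, against 19.8%.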

How the data were processed

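The authors made the deposited log2 values, 1 per transcript cluster and array, with RMA, per the submitters' processing notes. Clusters with 1 gene symbol (21218) were named, and those with several (1881) or none listed (12457) were not used. Of 18820 genes, 18790 matched the RefSeq table of GRCm38.p6. The filter (intensity over 20, or log2 4.32, on 5 or more arrays; interquartile range over 0.1) left 13993. Groups were compared in 1 linear model (R 4.3.3, limma 3.58.1, eBayes with trend, 23 residual degrees of freedom), which was tested on simulated data. The methods of the study use an intensity-based moderated statistic, run as an alternative. Correlations used 100000 permutations (numpy), of which the smallest possible p is 1e-05. Lists are counted over the genes tested, which were 12 of 15 chaperones, 15 of 18 coregulators, 11 of 12 corticosteroid genes, 15 of 16 metabolic targets, 17 of 18 growth and stress targets, 15 of 18 clock genes and every gene of the endothelial, stellate, Kupffer, immediate early and relatives lists, and 6 of 8 T and NK cell, 5 of 6 B and plasma cell and 4 of 5 neutrophil markers. Of the cholangiocyte markers, 4 of 5 were tested. The hepatocyte (3 of 8 tested) and adipocyte (2 of 5) lists gave levels only. The 10 genes, the lists and the tests were chosen with earlier results of these data known. Genes named beside the 10 are, per list, at most the 2 with the smallest p among those called in a comparison, and the ends of each ranking by r; Foxo1, Arntl, Tef, Nr1d2, Igfbp1, Vsig4, Klrb1c and the second call of Klf15 were named after their values were seen. Alternatives were other normalizations, filters, clusters and variance models, array weights, fits on 2 groups, blocks for array code, animal number or well row (the last chosen after seeing the data), and leaving out each mouse. Each mouse is a biological replicate, and the number of arrays limits the precision.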

Additional observations from a re-analysis of the deposited data

How the results depend on the processing

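The direction of the 3 called differences of Tsc22d1 was the same in every alternative run, while the other 57 differences were called in none of 1617 alternative values, and 30 of them changed sign in at least 1. For CR-MF minus CR the number of genes called was 0 instead of 1 with a fit on 2 groups (adjusted p = 0.111), with animal number as a replicate block (0.138) and on the arrays of code G150 alone (0.0697). For MF minus CR it was 0 with well row as a block (0.75, adjusted p = 0.081) and on row G alone. For CR minus C it was 0 without the filter (adjusted p = 0.0588), with the mean of all clusters of a gene, which takes in the doubtful second cluster (-0.35, adjusted p = 0.138), with array code as a block (0.0525), with animal number as a replicate block (0.199), on code G150 alone (0.0643), with well row as a block (0.0966) and on row F alone. With 1 mouse left out, the number called ran from 0 to 1 for CR-MF minus CR and for CR minus C. Median centring moved MF minus CR by the difference of the array medians, 0.13, and left 0.79 for Tsc22d1 (adjusted p = 0.00361). Same-numbered mice of different groups had a mean r of 0.09 (from -0.25 to 0.36 over 27 pairs of arrays), against -0.01 over 244 pairs with other numbers. Whether these differ was not tested, and the numbers were not taken to pair the samples. Over the other lists and comparisons, 26 counts of genes called moved by over 1.5 times with 1 mouse left out or array code as a block. The 6 correlated pairs kept an adjusted p under 0.05 in all 29 alternatives, in which 6 to 9 of 45 pairs were called. Why calls were lost was not tested, beyond fewer mice or, without the filter, more genes tested.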
